A study of Mus musculus with 8 samples.

Results

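Dense clusters of open chromatin were examined in granule neuron progenitors (GNPs), the dividing precursors of cerebellar granule neurons. Chromatin accessibility had been profiled with ATAC-seq, a method that lets Tn5 transposase cut and tag open DNA, in GNPs taken fresh from mouse cerebella on postnatal day 7. The strain is C56Bl6/J in the labels but C57BL/6N in the study's methods. A dense cluster is a run of at least 6 autosomal peaks of the wild-type (WT) list in which neighbouring peaks lie no more than 5 kb apart. Of 152984 WT peaks, 149637 were autosomal, and 3672 of these (2.45%) formed 538 dense clusters. The other 145965 autosomal WT peaks lay in shorter runs.

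The 8 libraries fell into 3 groups by genotype of Chd7, which encodes an ATP-dependent chromatin remodeller of the CHD family. WT cells (3 libraries) carried the floxed allele without Cre in the study (Chd7 f/f), mutant cells (3 libraries) were Atoh1-Cre::Chd7 f/f, and heterozygous cells (het, 2 libraries) were Atoh1-Cre::Chd7 f/+. No group was treated. Atoh1-Cre acts in the granule lineage, so other cell types that came with the GNPs were not targeted. The study also reports that some Chd7 protein was left in the posterior lobe of mutant cerebella, probably through less efficient recombination. It describes the WT and mutant replicates as technical. The authors called 1 peak list for each group on its pooled libraries, so the spread between libraries is unknown and genotypes were compared without a test. Reads left after removal of duplicates numbered 50394313 for WT, 51030229 for mutant and 30923002 for het. The het list came from a different alignment and from longer read extension (200 bp against 90 bp and 88 bp), so in every comparison with het, genotype and processing cannot be told apart. The study's methods give the het settings for all 3 genotypes, which differs from the headers of the WT and mutant lists. Read length, as determined by the peak caller, was 107 bp for WT and het but 76 bp for mutant. In comparisons of WT with mutant, genotype and read length therefore cannot be told apart.

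As background, most active promoters and enhancers appear in ATAC-seq as single peaks of nucleosome-free DNA. Genes that control cell identity are often surrounded by many such elements within a short distance, and stretches of this kind have been called enhancer clusters or super-enhancers when they also carry active histone marks. Accessibility alone does not show that an element is active. In the cerebellum, granule progenitors arise from Atoh1-expressing cells of the rhombic lip, proliferate under Sonic hedgehog, and then mature with the help of factors such as Zic1, Pax6, Neurod1 and the nuclear factor I proteins.

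The DNA under the tallest WT peak of several clusters is shown first, to let a reader see what these regions are made of. Each sequence is 200 bp of the GRCm38 plus strand centred on the peak summit. They are the cluster with the largest summed pileup, the miR-9-2 locus, and clusters with a start site of granule lineage genes. Capitals mark matches on either strand to any of the motifs searched (listed with their shares further on), and matches that overlap run together. No such match is in the first sequence.
Start of chromosome 9, chr9:3024375-3024574: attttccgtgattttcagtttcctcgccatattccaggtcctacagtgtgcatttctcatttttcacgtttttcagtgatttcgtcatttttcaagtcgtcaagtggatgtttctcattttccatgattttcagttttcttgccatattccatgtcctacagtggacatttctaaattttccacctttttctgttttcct
Zic1/Zic4, chr9:91365866-91366065: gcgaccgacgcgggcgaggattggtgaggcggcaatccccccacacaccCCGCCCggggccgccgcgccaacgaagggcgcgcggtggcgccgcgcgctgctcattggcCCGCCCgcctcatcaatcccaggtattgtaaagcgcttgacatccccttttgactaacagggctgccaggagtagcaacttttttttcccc
C130071C03Rik (miR-9-2), chr13:83744953-83745152: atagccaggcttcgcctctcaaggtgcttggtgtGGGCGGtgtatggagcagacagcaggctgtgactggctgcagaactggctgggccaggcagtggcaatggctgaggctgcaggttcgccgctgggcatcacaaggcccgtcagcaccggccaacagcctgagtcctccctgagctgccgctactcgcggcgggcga
Pax6, chr2:105660132-105660331: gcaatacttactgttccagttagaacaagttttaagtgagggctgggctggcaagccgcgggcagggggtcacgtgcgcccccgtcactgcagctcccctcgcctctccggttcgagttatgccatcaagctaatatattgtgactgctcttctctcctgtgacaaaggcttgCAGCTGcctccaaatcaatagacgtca
Neurod1, chr2:79456664-79456863: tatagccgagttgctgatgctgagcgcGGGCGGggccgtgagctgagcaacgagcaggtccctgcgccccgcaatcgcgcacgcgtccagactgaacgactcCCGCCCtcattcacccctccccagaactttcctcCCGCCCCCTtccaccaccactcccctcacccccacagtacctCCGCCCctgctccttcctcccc
Nfia, chr4:97772204-97772403: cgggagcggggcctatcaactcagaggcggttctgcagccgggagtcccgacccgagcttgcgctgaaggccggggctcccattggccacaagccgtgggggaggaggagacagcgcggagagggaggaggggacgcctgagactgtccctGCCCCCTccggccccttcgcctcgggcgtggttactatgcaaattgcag
Nfib, chr4:82513193-82513392: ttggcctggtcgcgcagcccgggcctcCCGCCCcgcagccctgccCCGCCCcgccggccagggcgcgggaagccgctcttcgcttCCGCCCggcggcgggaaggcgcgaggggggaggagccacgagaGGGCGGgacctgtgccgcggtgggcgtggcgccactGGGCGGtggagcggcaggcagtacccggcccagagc
Neurod2, chr11:98329519-98329718: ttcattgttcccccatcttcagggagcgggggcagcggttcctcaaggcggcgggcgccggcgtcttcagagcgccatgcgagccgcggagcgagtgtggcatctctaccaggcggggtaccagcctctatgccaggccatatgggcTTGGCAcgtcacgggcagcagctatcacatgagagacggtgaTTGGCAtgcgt
Id2, chr12:25096117-25096316: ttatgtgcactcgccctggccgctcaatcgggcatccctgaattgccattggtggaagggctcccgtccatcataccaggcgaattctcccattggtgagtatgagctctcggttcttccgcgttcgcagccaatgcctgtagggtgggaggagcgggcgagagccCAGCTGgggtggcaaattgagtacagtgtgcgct
The first sequence had a GC content of 36.5%, whereas the others ranged from 54.0% (Pax6) to 80.5% (Nfib). The Nfib window held 5 matches to GGGCGG, a sequence bound by Sp and Klf factors, and the Neurod1 window held 4. The Neurod2 window held 2 matches to TTGGCA, which is one side of the palindromic nuclear factor I site.

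Clusters also held microRNA genes. Of 919 autosomal hairpins in RefSeq (GRCm38.p6), 27 (2.94%, Wilson 95% interval 2.03 to 4.24) lay in a dense cluster. Some of the 27 are neighbours in the same cluster or lie on opposite strands of the same place, and the interval treats them as separate. As background, the clusters spanned 0.295% of the autosomal length of GRCm38, and 1.85% of coding genes and 1.20% of long non-coding RNA genes had a start site in one. Mature sequences of 3 of these loci follow, with the seed (bases 2 to 8) in capitals, because 2 of the pairs share their seed. miR-9 is abundant in neural progenitors, and miR-132 with miR-212 forms a pair of neighbouring genes known for its induction by neuronal activity.
miR-9-5p: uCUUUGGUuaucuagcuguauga
miR-9-3p: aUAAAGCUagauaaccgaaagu
miR-132-3p: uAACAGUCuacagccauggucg
miR-212-3p: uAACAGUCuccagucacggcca
miR-195a-5p: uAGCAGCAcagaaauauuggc
miR-497a-5p: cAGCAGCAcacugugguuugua
The hairpin of miR-9-2 lay at chr13:83738814-83738885 inside a cluster of 13 peaks. Those of miR-212 and miR-132 lay in a cluster of 6 peaks with the start sites of Ovca2 and Hic1 on chromosome 11, and both 3p arms have the seed AACAGUC. Those of miR-497 and miR-195a lay in another cluster of 6 peaks on chromosome 11, and their 5p arms share the seed AGCAGCA.

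Runs became rapidly rarer with size. Among 99893 runs of any size, 66747 were single peaks, 2296 held 4 peaks, 817 held 5 and 315 held 6. A further 114 clusters held 7 peaks, 62 held 8 and 28 held 9, and the largest held 34. The 538 clusters spanned 2.43 to 38.2 kb with a median of 13 kb and together covered 7.27 Mb. Peaks took up a median of 14.1% of the span. Summits of neighbouring peaks lay a median of 1929 bp apart, and 63 of the 3134 gaps between peaks were within 100 bp of the 5 kb limit.

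**Figure D1:**
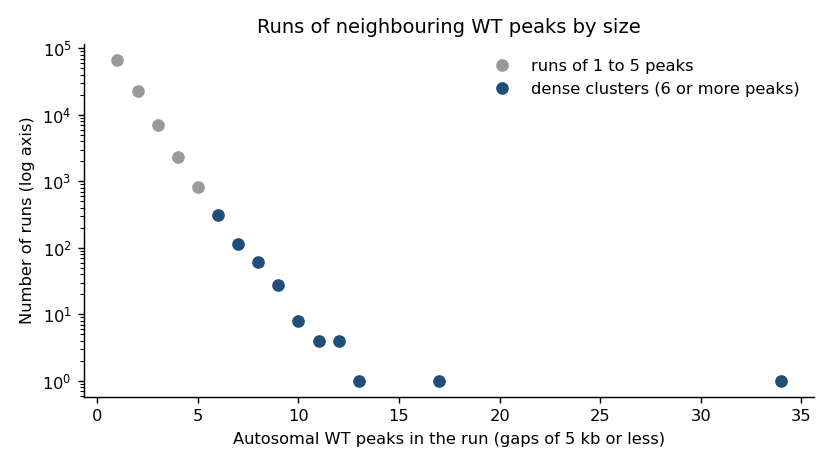
Number of runs (log axis) by the number of autosomal WT peaks in the run; each point is 1 run size. Runs of 1 to 5 peaks are grey and the 538 dense clusters blue, from 315 clusters of 6 peaks to a single cluster of 34.

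Summed pileup is the sum over a cluster's peaks of the number of extended reads at the summit. It ranged from 66 to 2678 with a median of 180.5, and the tallest peak contributed a median of 24.6% of it. Peaks in clusters were taller than other autosomal WT peaks, with median pileups of 24 and 16. They were nevertheless lower in fold enrichment over the local background, at medians of 4.18 and 4.86. The local background implied by these 2 columns was 4.88 reads at the median cluster peak and 2.24 at the median other peak. The peak caller takes this background from 10 kb around the peak, a window that in a dense cluster contains the neighbouring peaks. Just outside the rule, the 817 runs of 5 peaks had a median span of 9.35 kb and a median summed pileup of 119, against 11.8 kb and 151 for the 315 clusters of 6 peaks.

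The largest of all dense clusters was made of repeated DNA. It lay at the start of the assembled part of chromosome 9 (chr9:3000003-3038252) and held 34 peaks with a summed pileup of 2678, compared with at most 813 among the 525 clusters that are not mostly multi-copy. Soft-masked repeats took up 96.3% of its span, and its sequence matched itself best at a shift of 234 bp (71.3% identity). The number of distinct 31-mers in the span was 82.1% below the number of all its 31-mers. Predicted genes such as Gm10717, Gm10718 and Gm10722 are annotated there. As background, mouse pericentromeric heterochromatin consists of tandem satellite repeats, of which only fragments are assembled. The mutant list had 35 peaks in this span and the het list had 11.

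In 13 of the 538 clusters, more than 50% of the 31-mers under the peaks occurred more than once in the genome. These 13 held 121 peaks and included the Dux locus (AW822073/Duxf3/Gm4981, 12 peaks), the duplicated histone genes Hist2h2aa1 and Hist2h2aa2 (7 peaks), the Fc receptor gene Fcgr3 (7 peaks) and clusters in and near the Speer4 family on chromosome 5. A mutant peak overlapped 104 of the 121 peaks (86.0%), whereas a het peak overlapped only 31 (25.6%, 18.7 to 34.1). All 5 clusters without any het peak were among these 13. The study's methods kept only uniquely aligned reads from bowtie, the aligner named in the het header, while the WT and mutant headers name STAR. The part of the alignment in the low het share was not tested. Copy number was measured on 31-mers, which are shorter than the reads, and whether the reads of these clusters align to 1 place was not tested.

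Dense clusters lay closer to genes than other peaks. Of the 3672 peaks, 918 (25%, 23.6 to 26.4) were within 1 kb of a transcription start site (TSS), against 16.0% of other autosomal peaks. Introns held 41.3% and exons 6.64%, compared with 39.0% and 3.95%. Intergenic peaks were fewer, at 27.1% against 41.0%. Without the 13 multi-copy clusters 24.4% of cluster peaks were near a TSS. In runs of 5 peaks, just outside the rule, this share was 23.4% (22.1 to 24.7). It was 21.6% in clusters of 6 peaks and 14.6% for single peaks, so closeness to a TSS was not particular to dense clusters. The tallest peak of the cluster was at a TSS in 171 of 538 clusters (31.8%), in an intron in 200 and intergenic in 144.

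**Figure D2:**
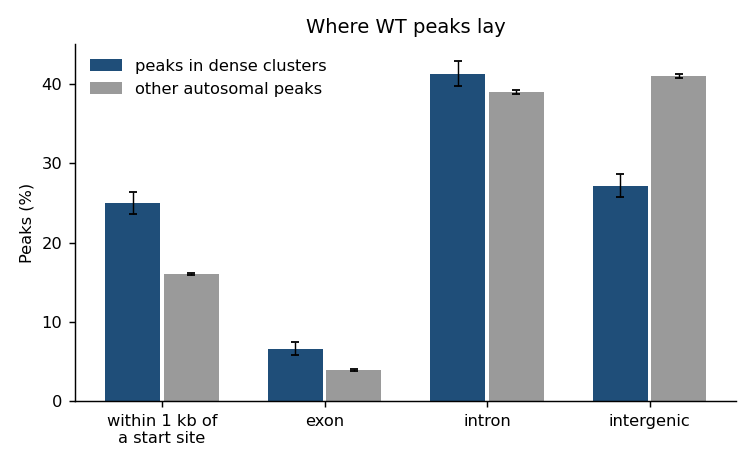
Percentage of WT peaks at each kind of location, read at the summit; bars are peaks in dense clusters (blue) and other autosomal peaks (grey), and error bars are Wilson 95% intervals, which cover counting error over peaks only. TSS peaks made up 25% in clusters and 16.0% elsewhere, and intergenic peaks 27.1% and 41.0%.

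A start site of a protein-coding gene lay in 285 clusters (53.0%). These 285 clusters had a median summed pileup of 205, compared with 156 for the 107 clusters wholly inside a gene. The 98 clusters with no start site in the span and not wholly inside a gene had a median of 148. A further 48 clusters held the start of a long non-coding RNA alone. In all, 385 of 20780 autosomal protein-coding genes had a start site in a cluster, so 1.85% is the background against which gene groups are read. Start sites of 2 or more coding genes lay in 61 clusters, and the largest number, 9, belonged to the repeated cluster at the start of chromosome 9, whose genes are predictions.

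Of 34 transcription factors of the granule lineage, 12 (35.3%) had a start site in a dense cluster. They were Barhl2, Id2, Meis2, Neurod1, Neurod2, Nfia, Nfib, Nfic, Pax6, Uncx, Zic1 and Zic4. Other lists had few: 1 of 20 genes of the hedgehog pathway and 1 of 17 of the Notch pathway, both of them Hes1, a transcriptional repressor. None of 19 housekeeping genes, 10 Purkinje cell markers, 9 oligodendrocyte markers, 9 microglial markers or 11 vascular markers had one. At the background of 1.85%, lists this short would mostly hold none, so these counts do not set their genes apart. Among 11 glial markers there was 1 (9.09%), the glutamate transporter gene Slc1a2. The lists were drawn up with earlier results of these data known, and these shares are descriptions without a test.

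The labelled cell type was checked at the promoters of marker genes. A WT peak lay within 1 kb of a start site of 6 of 7 granule lineage markers, the exception being Zic2, and the tallest of these peaks ranged from 36 at Barhl1 to 101 at Etv1. Peaks were also present at 3 of 4 Purkinje, 4 of 4 glial, 3 of 4 oligodendrocyte, 4 of 4 interneuron, 1 of 3 microglial and 3 of 3 vascular markers, with pileups up to 50. Whether these came from other cells or from promoters open in GNPs was not tested.

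Gene families chosen after the values were seen differed widely. Histone genes, taken by symbols that begin with Hist, had a start site in a cluster for 17 of 67 (25.4%). The other families were defined by RefSeq descriptions, and their counts were 3 of 18 Sox genes (16.7%), 5 of 36 helix-loop-helix genes, 5 of 41 forkhead genes, 8 of 66 protocadherins, 6 of 100 potassium channel genes, 11 of 197 homeobox genes (5.58%) and 1 of 24 nuclear receptor genes (4.17%). Of 642 genes described as zinc finger, 18 (2.80%) were in clusters. Only 1 of 90 ribosomal protein genes (Rpl3) and none of 1087 olfactory receptor genes were. Histone genes are short, closely packed and partly duplicated, and 5 of the 8 protocadherins share 1 cluster on chromosome 18.

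Chd7 itself, the gene deleted in the mutant, had a start site in a dense cluster. This cluster (chr4:8684575-8696943) held 6 WT peaks with pileups of 62, 34, 40, 22, 24 and 43, and a summed pileup of 225. All 6 had a mutant peak, with pileups of 59, 32, 52, 27, 30 and 39, and 4 had a het peak. The mutant-to-WT ratio of summed pileup, divided by the reads of each list, was 1.16. This ratio sums every mutant peak in the span, whereas the 6 listed pileups are only the highest that overlapped each WT peak. The peaks lie around the promoter and the first intron, and the deleted part of the gene was not examined, so these values do not check the deletion.

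The richest cluster of unique sequence lay at Zic1 and Zic4 (chr9:91350821-91387600), neighbouring genes for zinc finger factors that are required for cerebellar growth. It held 17 peaks over 36.8 kb with a summed pileup of 813. The tallest, with a pileup of 83, was 156 bp from a Zic1 start site, and the lowest, with 27, lay in an exon more than 5 kb from any start site. A mutant peak overlapped 16 of the 17, with pileups from 29 to 88, and the mutant list had 20 peaks in the span. The single WT peak without one had a pileup of 28 and lay in an exon, 2984 bp from a Zic4 start site. A het peak overlapped 11. The mutant-to-WT ratio was 1.20, with 7070 bp covered by mutant peaks against 6445 bp by WT peaks and mean pileups of 49.4 and 47.8. A further cluster of 10 peaks began at 91394189 on the same chromosome, and 6 of its peaks had a mutant peak.

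The miR-9-2 cluster (chr13:83720896-83750042) held 13 peaks with a summed pileup of 730 and lay over the long non-coding genes C130071C03Rik, Gm26803 and Gm33366. Its WT pileups ranged from 29 to 89, and the tallest peak was in an intron, 92.2 kb from the nearest coding start site, that of Mef2c. Every one of the 13 peaks had a mutant and a het counterpart. Mutant pileups at these peaks ranged from 26 to 90 and the ratio of summed pileup was 1.05. Mef2c, a MADS box factor of neuronal differentiation, was the nearest coding gene for 3 clusters with 25 peaks in all. In the most distal of them (chr13:83880314-83886167) only 3 of 6 peaks had a mutant peak, and the ratio was 0.569.

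Pax6, a paired-type homeobox factor of the granule lineage and the eye, was the nearest coding gene for 3 clusters with 28 peaks, the most among genes nearest to more than 1 cluster. The cluster over the start of the gene and the DNA upstream (chr2:105657512-105682341) held 12 peaks with pileups from 23 to 64. The tallest lay upstream of Pax6 in an exon of another gene, 1111 bp from a start site of the long non-coding RNA Paupar. The mutant list overlapped 10 of the 12 and had 15 peaks in the span. The ratio of summed pileup was 1.36, with mean pileups of 40.3 in mutant and 36.7 in WT, so the larger sum came with more called peaks, although these covered 4532 bp against 4999 bp in WT. The clusters on either side, of 7 and 9 peaks, had ratios of 1.02 and 0.861.

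Neurod1, a basic helix-loop-helix factor of granule neuron differentiation, had 7 peaks in 10.5 kb (chr2:79449377-79459872). The promoter peak reached a pileup of 84 in WT, 80 in mutant and 132 in het, where the scale is larger through the longer extension. The other 6 ranged from 32 to 43 in WT and from 25 to 47 in mutant. All 7 had a mutant peak. Neurod2, a related factor of more mature neurons, had 8 lower peaks with WT pileups from 14 to 40. Of these, 5 had a mutant peak, and the ratio of 0.627 was the lowest of the 11 clusters with granule lineage factors. The 3 Neurod2 peaks without a mutant peak had pileups of 17, 15 and 14.

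The nuclear factor I genes, whose products act in granule neuron maturation, had clusters of 9 peaks (Nfia), 7 peaks (Nfib) and 11 peaks (Nfic). The tallest peaks reached 81, 72 and 64 in WT, and 85, 78 and 55 at the overlapping mutant peaks. At Nfia the only WT peak without a mutant peak had a pileup of 14, the lowest of the 9. At Nfib all 7 peaks had a mutant peak, including the lowest, which had a pileup of 11 in both lists. A second cluster of 6 peaks lay inside Nfib, with its tallest peak 99.1 kb from a start site, and all 6 of its peaks had a mutant peak.

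Id2, an inhibitor of helix-loop-helix factors, had 6 peaks with WT pileups of 19, 14, 32, 79, 61 and 18 and mutant pileups of 27, 28, 37, 81, 64 and 21. All 6 were higher in mutant, at a ratio of 1.14 for the cluster. At Uncx, a homeobox gene, the 2 lists differed the other way, with 5 of 6 peaks overlapped and a ratio of 0.641. There the mutant list joined the first 2 WT peaks into 1, so that 4 mutant peaks covered 2000 bp where 6 WT peaks covered 2108 bp. Barhl2, also a homeobox gene, had 6 of 8 peaks overlapped and a ratio of 0.938. Over the 11 clusters with a granule lineage factor, 87 of 100 peaks (79.0 to 92.2%) had a mutant peak and 66 had a het peak, close to the 84.2% and 66.7% of all cluster peaks. The ratio was above 1 in 8 of the 11 and below 1 in 3, and above 1 in 236 of all 538 clusters.

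**Figure D3:**
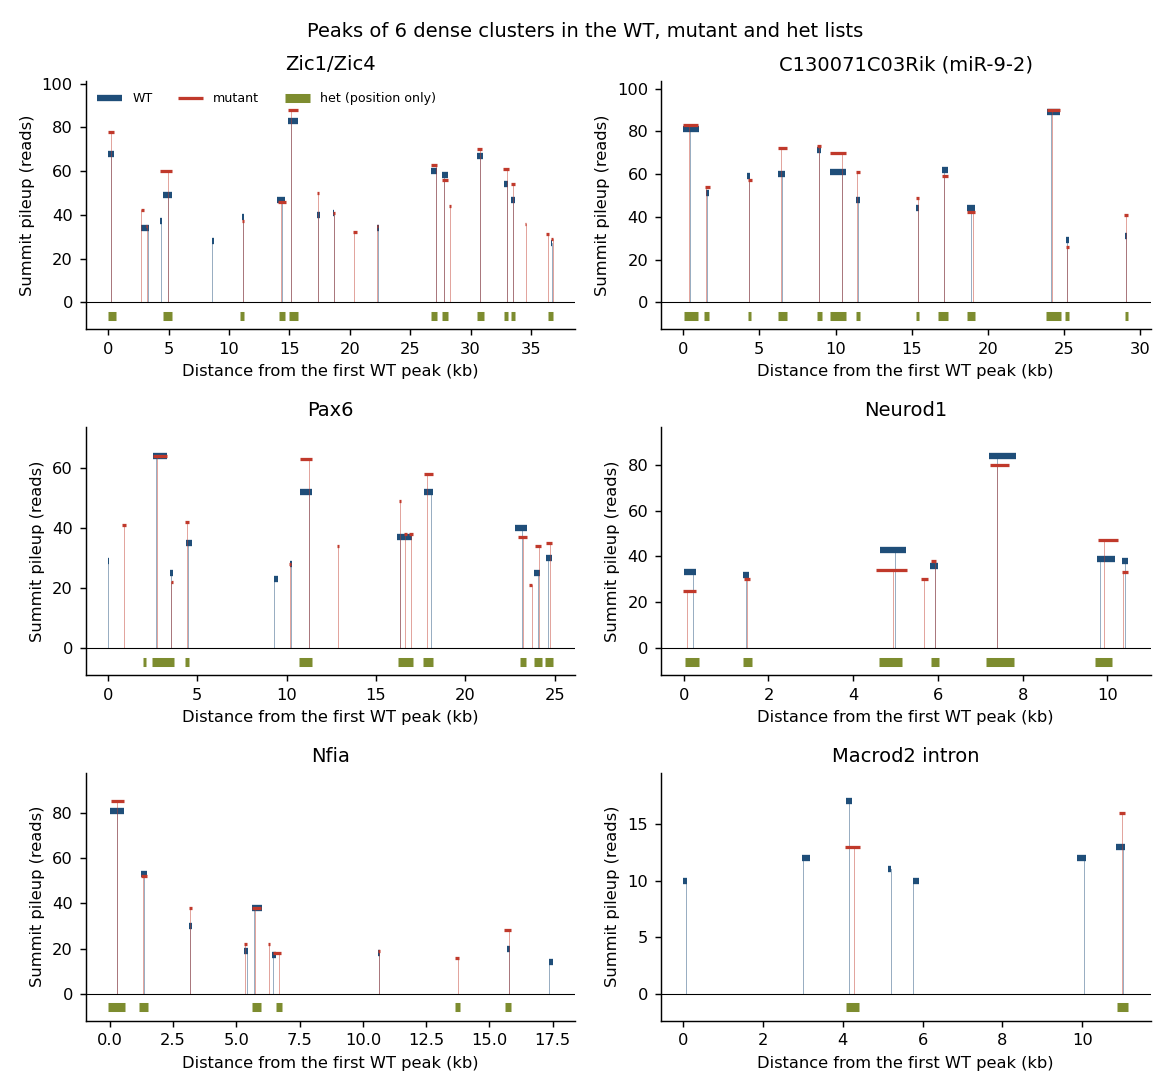
Peaks of 6 dense clusters against distance from the first WT peak (kb). Horizontal bars show the width and summit pileup (reads) of WT (blue) and mutant (red) peaks, thin lines mark their summits, and green blocks under the axis show the position of het peaks without their height; all 13 peaks at miR-9-2 have mutant and het counterparts, and 2 of the 7 in the Macrod2 intron do.

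Several of the largest clusters held no start site of a listed granule lineage gene. On chromosome 10, a cluster of 12 peaks (chr10:128909532-128939241) covered the start sites of Bloc1s1, Rdh5, Itga7 and Cd63, genes of lysosome-related organelles, retinol metabolism, laminin binding and the tetraspanin family. All 12 of its peaks had both a mutant and a het counterpart. The polycomb gene Phc2 had 12 peaks, the RNA-binding protein gene Celf2 11, and an intron of Clybl, which encodes a mitochondrial enzyme, 11. Klf9, a transcription factor gene that responds to thyroid hormone, had 10 peaks with a summed pileup of 425, and its promoter peak stood at 81. The histone cluster at Hist1h1a had 9 peaks, all at start sites, with a summed pileup of 432 and a ratio of 1.17. A cluster on chromosome 9 without any start site (chr9:90690134-90701627) reached a summed pileup of 423 with 9 peaks, 427 kb from the nearest coding start site, that of Tbc1d2b.

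The most compact clusters packed 6 peaks into less than 4 kb. The shortest, at the potassium channel gene Kcng3, took 2.43 kb and had pileups of at most 27. Those at the homeobox gene Six5 and the phosphatase gene Ptprg took 2.80 and 3.56 kb, and the GC content of all 3 spans was high, at 64.1%, 64.4% and 60.1%. At Ptprg all 6 peaks had a mutant peak although only 5 mutant peaks lay in the span, which shows that 1 broad peak in one list can meet 2 in the other.

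Genes on the study's lists of Chd7-activated genes were examined next. Of 131 matched autosomal genes on the first list, 6 (4.58%) had a start site in a dense cluster, namely Barhl2, Gm26794, Grik2, Kcnj3, Pard6a and Slitrk5. The second list held 203 genes, part of a longer set named as activated by both Chd7 and the topoisomerase Top2b. Of its 177 matched genes, 13 (7.34%) had one, among them Camk2d, Nbea, Pcdh7, Ppp3ca and Chd7. The glutamate receptor gene Grik2 and the potassium channel gene Kcnj3 were on both lists. All 6 peaks at Grik2 and all 6 at Kcnj3 had a mutant peak, with ratios of 0.875 and 1.12. At Camk2d, a kinase gene, 7 of 8 peaks had one and the ratio was 0.772, and at Slitrk5, a synapse organiser gene, 6 of 6 did and the ratio was 0.962. The study drew the first list from its own Chd7 mutant cells and the second from such cells and from neurons treated with the topoisomerase II inhibitor ICRF-193, and the clusters described from them were picked after their values were seen.

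Peaks of dense clusters were found again in the mutant list slightly more often than others. A mutant peak overlapped 3090 of the 3672 (84.2%, 82.9 to 85.3), where the background over all autosomal WT peaks was 77.0% and the share among the other peaks was 76.8%. For het, the counts were 2448 (66.7%, 65.1 to 68.2) against a background of 63.0% and 62.9% of the others. Both lists overlapped 64.2% of cluster peaks, and neither overlapped 13.3%, compared with 20.1% of other peaks. Without the multi-copy clusters the shares were 84.1% for mutant and 68.1% for het. Runs of 5 peaks had 82.2% for mutant and 65.5% for het, and runs of 4 peaks 82.3% and 66.8%. Single peaks had 74.2% and 61.1%. The higher overlap was thus not particular to dense clusters. Intervals cover counting error over peaks only. The mutant list held 170362 autosomal peaks and the het list 104396, so their full shares are not on equal terms. With the mutant list cut by q-value to the number of het peaks, mutant peaks overlapped 68.6% of cluster peaks and het peaks 66.7%.

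The difference between cluster peaks and other peaks depended on peak strength. WT peaks were divided into 10 bins of equal size by q-value, and in the weakest bin 51.1% of 266 cluster peaks had a mutant peak against 33.8% of 14698 others. In the third bin the shares were 66.1% and 54.8%, and in the fifth they were 83.7% and 79.4%. From the sixth bin upward the mutant shares differed by less than 1 percentage point, and all peaks of both kinds in the strongest bin had a mutant peak. For het, cluster peaks of the weakest bin were again ahead (31.6% against 17.6%), but those of the strongest were behind, at 97% of 197 against 99.8%. Without the multi-copy clusters the strongest bin reached 99.4%. When only WT peaks with -log10 q of at least 5 were chained, cluster peaks were no longer ahead. A mutant peak overlapped 93.6% of cluster peaks (91.7 to 95.1) and 94.2% of the others, a difference within counting error. For het peaks the order turned, at 75.7% (72.6 to 78.4) and 84.3%. With gaps held to 3000 bp, het peaks overlapped 61.3% of cluster peaks (57.6 to 64.9) and 63.0% of the others, again within counting error.

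**Figure D4:**
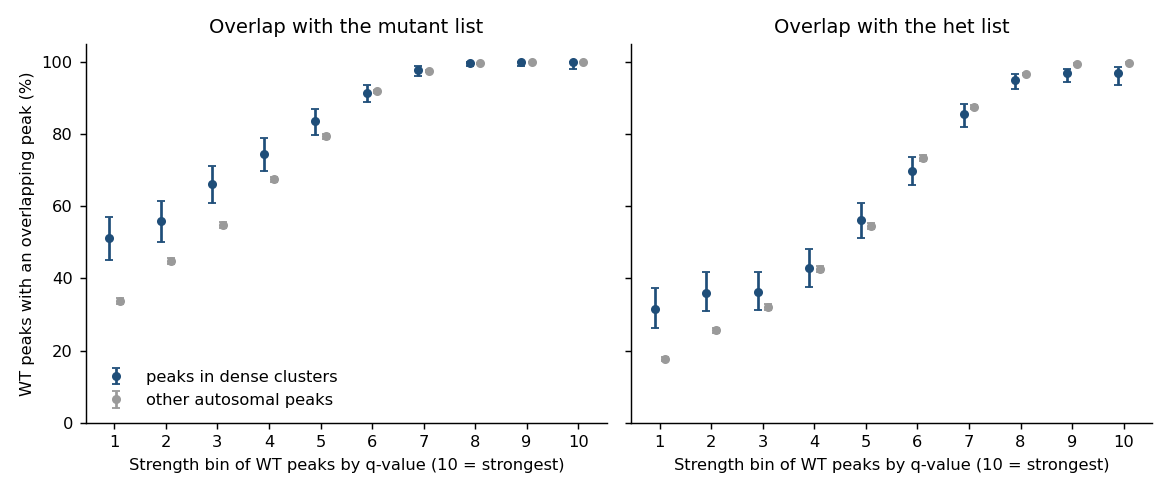
Percentage of WT peaks with an overlapping mutant peak (left) or het peak (right) by strength bin of q-value, 10 being the strongest. Points are peaks in dense clusters (blue) and other autosomal peaks (grey) with Wilson 95% intervals; cluster peaks are higher in the weakest bins (51.1% against 33.8% for mutant) and the series meet from the sixth bin upward for mutant.

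Location mattered as well. In intergenic DNA and introns, cluster peaks were overlapped by mutant peaks more often than others (84.5% against 71.4% of intergenic peaks, and 85.0% against 76.9% of intronic peaks). In exons the shares were 74.2% (68.3 to 79.3) of 244 cluster peaks and 77.7% of the others, and those of het were 60.2% and 62.9%. At start sites cluster peaks were behind, with 85.1% (82.6 to 87.2) of cluster peaks and 90.5% of the others. Het peaks overlapped 70.9% of TSS peaks in clusters and 83.3% of the others. Within a cluster, overlap followed the order of height. The tallest peak had a mutant counterpart in 534 of 538 clusters (99.3%) and a het counterpart in 518 (96.3%). At the fourth peak these shares were 86.1% and 64.3%, and at the sixth 66.7% and 42.4%.

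Every peak of the cluster had a mutant counterpart in 178 clusters (33.1%) and a het counterpart in 45 (8.36%). In 8 clusters less than 50% of the peaks had a mutant counterpart, and in 75 less than 50% had a het counterpart. Counted by span, 335 clusters (62.3%) held at least 6 mutant peaks and 88 (16.4%) at least 6 het peaks. The spans were set by WT peaks, so these counts do not meet the WT counts on equal terms. The mutant list was also longer than the het list, so mutant and het counts do not meet each other on equal terms. Applied to the other lists, the same rule found 921 clusters in mutant, with 3.75% of its autosomal peaks, and 94 in het, with 0.591%. A mutant cluster overlapped 318 of the 538 WT clusters (59.1%), and a WT cluster overlapped 317 of the 921 mutant clusters (34.4%).

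Summed pileup differed little between WT and mutant for most clusters. The mutant-to-WT ratio of summed pileup per read had a median of 0.978, with 302 clusters below 1 and 236 above, and 436 of 538 (81.0%) lay between 0.8 and 1.25. The spans were chosen by their WT peaks, which also form the denominator. A ratio below 1 can follow from that choice alone and is not read as a loss. WT peaks in the spans covered 1044648 bp at a mean pileup of 28.9, and mutant peaks 1020595 bp at 31.8. Over all autosomal peaks, where no such choice was made, the ratio of the 2 lists was 1.12, and the mutant list was longer. Among the 3090 cluster peaks shared with mutant, 1311 (42.4%) had a lower pileup per read in mutant, and the background over all shared autosomal WT peaks was 42.6%. The median ratio at shared peaks was 1.04 in clusters and 1.05 elsewhere. Counting only peaks that overlapped in both lists gave a median cluster ratio of 1.05.

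**Figure D5:**
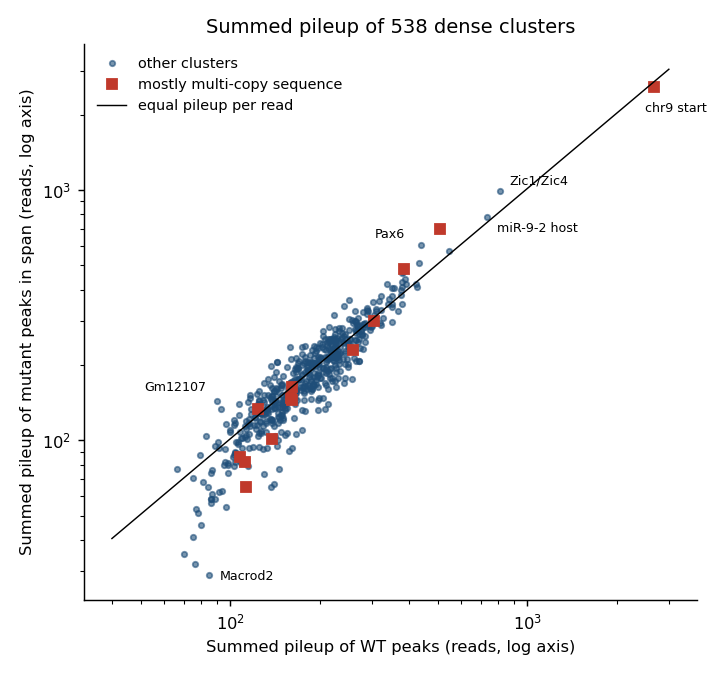
Summed pileup of WT peaks (x axis, reads, log scale) and of mutant peaks in the same span (y axis, reads, log scale) for each of the 538 dense clusters; the line marks equal pileup per read and red squares are the 13 clusters of mostly multi-copy sequence. Points follow the line from 66 to 2678 reads, with a spread toward low mutant sums among clusters of low WT pileup such as the one in Macrod2.

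The lowest overlap and the lowest ratio occurred mostly in clusters of weak peaks. In an intron of Macrod2, which encodes a mono-ADP-ribosyl hydrolase, a cluster of 7 peaks (chr2:140694600-140705680) had WT pileups from 10 to 17. Of these, 2 had a mutant peak, with pileups of 13 and 16, and the same 2 had a het peak. Its ratio of 0.337 was the lowest of all, and the nearest coding start site was that of Flrt3, a cell adhesion gene. Inside Pcdh9, a protocadherin gene, 2 of 6 peaks had a mutant peak and the ratio was 0.416, with WT pileups of at most 20. Clusters inside the sodium channel gene Scn3a and the R-spondin receptor gene Lgr4 also had 2 of 6. The clusters inside Adgrl3, near 4930505K14Rik and near Gm48492 had 2 of 6 too. Of these 7 clusters, the last was the only one with a peak above 28, at 54, and its ratio was 0.721. At the glycine transporter gene Slc6a9 the ratio of 0.469 came with 5 of 6 peaks overlapped. The mutant list had only 2 peaks there, yet they covered 2488 bp against 2262 bp in WT, so the lower sum went with joined peaks.

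The 5 highest ratios, 1.41 to 1.57, were reached by clusters with summed WT pileups of 90 to 252. They lay at Gm12107 on chromosome 11, in an intron of the RNA-binding protein gene Celf4, at the homeobox gene Nkx2-2, at the collagen gene Col27a1, and near Trmt9b on chromosome 8. At Col27a1 all 8 WT peaks had a mutant peak, 10 mutant peaks lay in the span, and the mean pileup was 36.4 in mutant and 31.5 in WT. At Trmt9b the mean pileup was 20.6 in both, and the ratio of 1.41 came from 10 mutant peaks against 7 in WT.

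The sequence of cluster peaks was somewhat richer in GC, with a median of 55.0% in 200 bp around the summit against 51.5% for other peaks. The difference was seen at intergenic peaks (53.0% against 50%) and intronic peaks (53.0% against 51.0%) but not at TSS peaks (60.5% against 61.0%). The CpG observed-to-expected ratio had a median of 0.296 in clusters and 0.218 elsewhere.

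Motifs were counted as exact matches in the same 200 bp on both strands. GGGCGG was in 17.2% of cluster peaks (16.0 to 18.5) and 11.2% of the others. At intergenic peaks these shares were 12.6% and 5.15%, whereas at TSS peaks they were 35.2% and 41.7%. The CTCF core AGGGGGC, which can overlap GGGCGG by sharing its G run, was in 7.22% and 5.63%. The E-box CAGCTG was in 25% and 23.5%, and the E-box CAGATG in 27.3% and 28.7%. The nuclear factor I element TTGGCA was less frequent in clusters, at 19% (17.8 to 20.3) against 21.7%, and the full palindromic site was in 1 of 3672 cluster peaks and 128 of 145965 others. The AP-1 site TGACTCA was in 3.54% and 3.97%. The Zic site CACAGCAGG (0.817% and 1.19%) and the Gli site TGGGTGGTC (0.245% and 0.280%) were rare in both. These are matches of letters and were not weighed for GC content.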

How the data were processed

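ATAC-seq was analysed from 3 peak lists, each called by the authors with MACS2 2.1.0.20150731 on the pooled libraries of 1 genotype (build mm10, q-value cutoff 0.05, no control, regional background of 10 kb). Per the file headers, WT and mutant reads came from a STAR folder, whereas het reads came from a bowtie folder and were shifted by -100 bp and extended to 200 bp. The deposited pileup is a signal, the number of extended reads at the summit, and it was not scaled to depth by the authors. With 1 read kept per position and strand it cannot exceed 180 in WT and 176 in mutant, and both values were reached. The deposited fold enrichment is the ratio of pileup to local background. The deposited -log10 q-values were used as given by the authors, and the p-values were not used.

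WT peaks on 19 autosomes were chained at gaps of at most 5000 bp, and runs of at least 6 peaks were kept. An overlap needed 1 bp. Pileups were divided by the reads of each list for mutant-to-WT ratios, and het pileups were not compared in level. Locations were read at the summit from all transcript starts of protein-coding and long non-coding genes in GENCODE M21, in the order TSS within 1 kb, exon, intron, intergenic. Sequence, GC content and 31-mer copy number came from GRCm38. Intervals are Wilson 95% intervals. The scripts (Python 3.11.15, pandas 2.3.3) were tested on simulated peak lists.

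Clusters were named by rule: the 10 with the most peaks, the 10 with the largest summed pileup, the 5 longest, the 5 shortest, the 5 with the lowest mutant overlap, the 5 lowest and 5 highest ratios, and all with a start site of a granule lineage or hedgehog gene. Others were named after their values were seen. Members, gene lists and comparisons were chosen with earlier results of these data known. No test was made, since the lists hold no separate replicates. The share for a list of interneuron genes and 1 run on X are not reported here.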

Additional observations from a re-analysis of the deposited data

How the results depend on the processing

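No paired analysis was possible because each list was called on pooled libraries, and for the same reason no replicate could be left out. Of 111 values recomputed under 18 settings, 42 moved by less than their interval or 1.5 times, 65 moved more and 4 reversed. The median mutant-to-WT ratio, 0.978 as reported, passed 1 in those 4: it was 1.02 with gaps up to 10000 bp, 1.01 with WT peaks of -log10 q of at least 5, 1.04 with WT peaks within 300 bp joined first, and 1.05 with only peaks overlapping in both lists. It was 0.998 with at least 8 peaks and 0.874 when scaled by the summed pileup of all autosomal peaks. With strong WT peaks and after joining, only the WT list was filtered or joined, and the mutant list was kept whole. These steps take reads out of the WT sum but not out of the mutant sum. Those ratios are therefore not on equal terms with the reported one. What moved the other values was not tested.

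Cluster numbers followed the rule: 100 with gaps up to 3000 bp, 3757 with 10000 bp, 1355 with at least 5 peaks, 109 with at least 8, 123 with strong WT peaks and 310 after joining. In the same order they held 0.449%, 20%, 5.18%, 0.658%, 0.910% and 1.5% of autosomal peaks, and 2.37% without the multi-copy clusters, a setting chosen after seeing the data. At least 6 mutant peaks lay in 52.0%, 76.2%, 33.7%, 91.7%, 77.2% and 74.2% of clusters, and at least 6 het peaks in 10%, 38.1%, 6.79%, 45.9%, 32.5% and 24.2%. With mutant and het peaks of -log10 q of at least 5 these shares were 25.8% and 10.6%. The count of 6 was kept throughout, so the shares with at least 5 or 8 WT peaks per cluster partly follow from the rule. In the runs with strong WT peaks and after joining, mutant and het peaks were neither filtered nor joined.

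Mutant overlap of cluster and other peaks was 82.9% and 75.6% with 10000 bp gaps, 93.6% and 94.2% with strong WT peaks, 70.6% and 63.7% with 50% reciprocal overlap, 88.8% and 80.3% within 300 bp, 69.9% and 63.0% with strong mutant peaks, and 68.6% and 62.2% with lists of equal number. After joining it was 77.7% for other peaks. Het overlap was 68.4% and 61.6%, 75.7% and 84.3%, 50.6% and 50%, 73.0% and 66.0%, and 59.0% and 53.5% for the first 5 of these settings, 61.3% of cluster peaks with 3000 bp gaps, and 63.5% of other peaks after joining. Other peaks were ahead of cluster peaks with strong WT peaks, for both lists, and with 3000 bp gaps, for het alone (63.0% of other peaks). Of these differences, only that of het with strong WT peaks lay beyond the interval of the cluster share.

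The share of cluster peaks near a TSS was 35.6% with 3000 bp gaps, 19.4% with 10000 bp, 29.7% with at least 8 peaks, 29.8% with strong WT peaks, 21.5% after joining, 17.8% within 500 bp, 34.5% within 2000 bp and 21.5% for protein-coding genes alone. Median GC content was 54.0% with 10000 bp gaps, 56.0% with at least 8 peaks and 56.0% in 100 bp windows.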

Other observations

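The sex chromosomes, which the rule leaves out, held 11 further runs of at least 6 WT peaks on X and 1 on Y. The largest on X (50590820 to 50623425) had 16 peaks with a summed pileup of 382, and all 16 had a mutant peak and 14 a het peak. A run of X-linked peaks held a start site of Bcor, which encodes a transcriptional corepressor (8 peaks, 7 with a mutant peak). The run on Y held 12 peaks. Mice of both sexes were not separated in the study, so levels on X and Y were not compared between genotypes.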
